A study of Mus musculus with 10 samples.

Results

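The genes described here encode the proteins of the cytosolic ribosome, the particle that translates messenger RNA. They were all rows of the deposited gene count table with a symbol made of Rpl or Rps and a digit, together with Rpsa, Rplp1 and Rplp2, without named pseudogenes and the Rps6k kinase genes, and with at least 10 counts summed over the 10 libraries. The name rule found 92 rows and the count minimum kept 90 of the 53465 genes in the table. Just inside the minimum were Rpl39l with 12 counts and Rpl3l with 19, and just outside it were Rpl10l and Rps12l1 with 0 each. Of the 90 genes, 45 encode the proteins of the large (60S) subunit and 31 those of the small (40S) subunit. The other 14 are paralogues, retrotransposed copies and genes that only share the name, such as Rps19bp1 and Rpl7l1. The filter on low counts kept 87 of the 90, and Rpl24, Rpl39l and Rpl3l were not tested.

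The libraries came from spleen erythroblasts, the dividing precursors of red cells, isolated with magnetic beads from C57BL/6 mice 11 days after 5-FU, a drug that kills dividing blood precursors. The genotypes were Nrf2/miR-144/451-/- (double-null, 3 libraries), Nrf2-/- (Nrf2-null, 3 libraries), miR-144/451-/- (miR-144/451-null, 2 libraries) and wild type (2 libraries), and every group had received 5-FU. Nrf2, encoded by Nfe2l2, is a transcription factor of antioxidant genes, and miR-144 and miR-451, made from 1 cluster, are microRNAs at high level in red cell precursors. The labels do not say which mouse each library came from, so each p-value reflects the spread among libraries, which may be technical.

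A ribosome holds 1 copy of most of its proteins, and cells make the proteins of both subunits in balance. Their messenger RNAs begin with a run of pyrimidines, through which growth signals set their translation, and their promoters often hold sites for ETS-type factors. Red cell precursors are sensitive to shortage: human mutations in RPS19, RPL5, RPL11 and other ribosomal protein genes cause Diamond-Blackfan anaemia, a failure of red cell production.

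A run of pyrimidines is visible at or near the annotated starts of some of these genes. In Rpl18 the base at the annotated start is g, a purine, and the run follows it. The sequences below are 30 bases of the coding strand, 15 before the RefSeq start and 15 from it, in build GRCm38.p6, with the letters CTTTCC in capitals. They are shown for 4 genes that rose in double-null against Nrf2-null libraries (Rpl28, Rpl18, Rpl15 and Rps10) and for Rps27, which did not, and were chosen after the values were seen, among promoters that hold these letters.
Rpl28, chr7:4792950-4792979, plus strand: ccgcctctcgtgtctctCTTTCCgtctccg
Rpl18, chr7:45718056-45718085, plus strand: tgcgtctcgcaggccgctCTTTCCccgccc
Rpl15, chr14:18270972-18271001, minus strand: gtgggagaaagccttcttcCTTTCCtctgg
Rps10, chr17:27635230-27635259, minus strand: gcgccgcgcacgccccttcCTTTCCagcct
Rps27, chr3:90213634-90213663, minus strand: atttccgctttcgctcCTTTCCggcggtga

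RefSeq promoters, running from 250 bases before the start to 50 after it, were found for 56 of the 76 genes that encode subunit proteins, 66 promoters in all. CTTTCC or its reverse complement GGAAAG occurred in 32 of the 66 (48.5%), against 26.6% of all 32851 promoters in the table. CGGAAG or CTTCCG, the core letters of an ETS site, occurred in 42 of the 66 (63.6%), against 16.9% of all promoters. Both strands were searched, and the motifs can overlap by 1 letter at most. The letters did not separate genes by their difference between double-null and Nrf2-null libraries: CTTTCC was found for 9 of 19 genes past the threshold and 18 of 36 not past it, and CGGAAG for 14 of 19 and 25 of 36. A match is a run of letters, not a measured site.

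Library totals ran from 13087827 to 15131036 counts, of which globin genes made up 7.08% to 12.18%. By Xist and Ddx3y counts, double-null replicate 3 and both wild type libraries came from females and the other 7 from males. Mir144 had 0 counts over the double-null and over the miR-144/451-null libraries, against 38 over the Nrf2-null and 29 over the wild type libraries. Nfe2l2 counts cover the whole gene and do not check the Nrf2 genotype. No marker of erythroblasts, B, T or NK cells, macrophages, neutrophils or megakaryocytes was at 0 in all libraries of a genotype. Double-null replicate 3 and Nrf2-null replicate 3 stood apart in the ribosomal protein genes, as given next, and counts of genes called between these genotypes are given with and without them.

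Ribosomal protein genes took 2.37%, 2.23% and 3.03% of all counts in the 3 double-null libraries and 2.00%, 2.16% and 1.54% in the 3 Nrf2-null libraries. They took 2.51% and 2.75% in the miR-144/451-null libraries, against 2.31% and 2.04% in wild type. All 3 double-null libraries were above all 3 Nrf2-null libraries, and both miR-144/451-null libraries were above both wild type libraries. The extremes came from single libraries: of the 75 subunit protein genes tested, 71 had their highest normalised level in double-null replicate 3 and 68 had their lowest in Nrf2-null replicate 3. In bulk RNA, fewer cells of a type and less RNA per cell cannot be told apart.

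**Figure D1:**
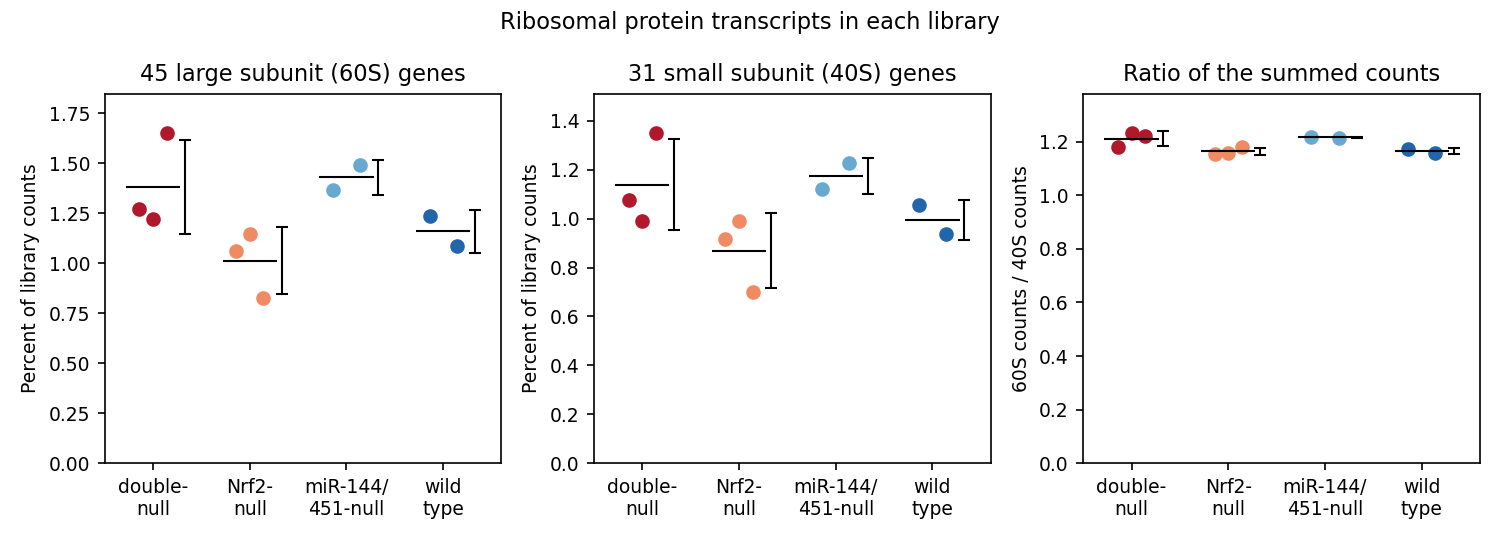
Share of all counts (%) taken by genes of 60S proteins (left) and 40S proteins (middle), and the ratio of the 2 sums (right), for each library (points) with the group mean and SD. Double-null replicate 3 has the largest shares, 1.65% for 60S and 1.35% for 40S, and Nrf2-null replicate 3 the smallest, 0.824% and 0.699%.

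The subunits moved together. Genes of 60S proteins took 1.27%, 1.22% and 1.65% of counts in double-null libraries, against 1.06%, 1.15% and 0.824% in Nrf2-null libraries. Genes of 40S proteins took 1.08%, 0.991% and 1.35% in double-null libraries, against 0.918%, 0.991% and 0.699% in Nrf2-null libraries. The 40S sums of double-null replicate 2 and Nrf2-null replicate 2 were equal to 3 digits, while the 60S sums of these genotypes did not overlap. The ratio of 60S to 40S counts was 1.18, 1.23 and 1.22 in double-null, 1.16, 1.16 and 1.18 in Nrf2-null, 1.22 and 1.21 in miR-144/451-null, and 1.17 and 1.16 in wild type libraries. The ratios of the 5 libraries that lack the cluster lay above those of the other 5, closest for double-null replicate 1 and Nrf2-null replicate 3, both 1.18 as rounded. The ratio is a description and carries no test.

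**Figure D2:**
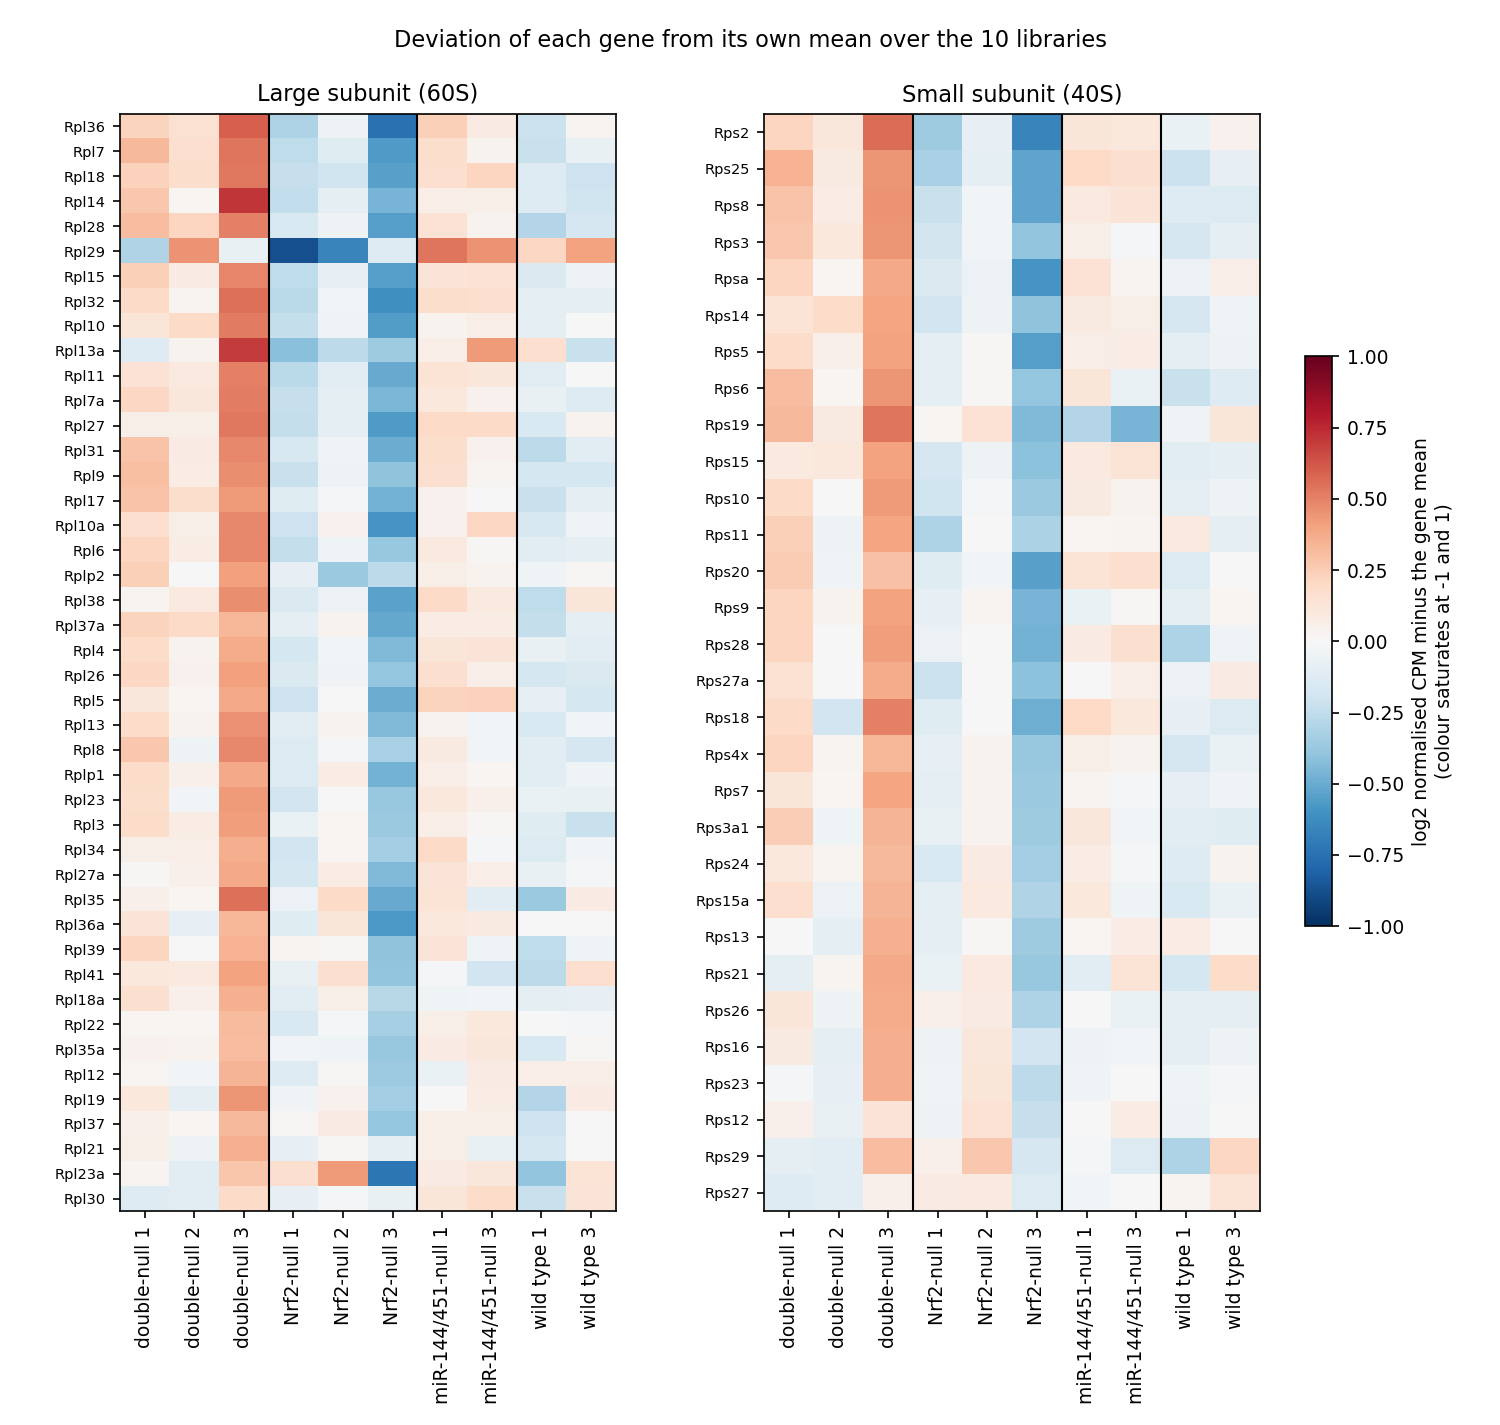
Log2 CPM of the subunit protein genes tested (1 per row, with 1 gene not drawn) minus that gene's mean over the 10 libraries (columns). Colour stops at 1 in either direction. Over all 75 genes, double-null replicate 3 is above the mean in 74 and Nrf2-null replicate 3 in 0.

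Most genes followed a common course over the libraries. The log2 CPM of each subunit protein gene was set against the median of the others over the 10 libraries, which share their scaling factors. Pearson's r had a median of 0.948 over the 75 genes, and 55 exceeded 0.9. Those that followed it least were Rps27 (r = 0.133), Rpl29 (0.135), Rps29 (0.479), Rpl30 (0.482), Rps19 (0.644), Rpl23a (0.685) and Rpl13a (0.699), given here by their rank. These values are a description of the libraries and carry no test.

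Levels between genes were compared on the deposited FPKM scale, which divides counts by gene length, so ranks depend on the length used. Among the 90 genes the most counts over all libraries were 139927 for Rpl4, 135954 for Rpsa and 119596 for Rpl3. Rpl8 had 103647, Rps3a1 97969 and Rplp1 67766. The annotated exons cover 499 bases in Rplp1 and 2007 in Rpl4. The highest means over the 10 libraries were 965 FPKM for Rplp1, an acidic protein of the stalk that recruits elongation factors, 854 FPKM for Rpl8, which lies near the peptidyl transferase centre, and 712 FPKM for Rps3a1. Rplp1 ranged from 629 to 1241 FPKM, Rpl8 from 618 to 1177 FPKM and Rps3a1 from 505 to 894 FPKM, so the ranges of Rplp1 and Rpl8 overlapped. Of the 31-base words (31-mers) in their transcripts, 75.1% in Rplp1, 6.2% in Rpl8 and 76.9% in Rps3a1 also occur in another gene, so reads of Rplp1 and Rps3a1 can be assigned elsewhere. The lowest means among subunit proteins were 0.321 FPKM for Rpl24, 2.83 FPKM for Rpl13a and 8.48 FPKM for Rpl30. Rpl24 had 46 counts in all, though every ribosome holds its protein. Other annotated genes overlap 47.0% of the exonic bases of Rpl24, 35.4% of those of Rpl13a and 24.8% of those of Rpl30, and the handling of such reads is not given in the sources used here. Rpl23a and Rpl35, the next lowest at 14.1 and 14.5 FPKM, are overlapped over 62.3% and 66.2% of their exonic bases. The part of overlap or shared words in these low levels was not tested.

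**Figure D3:**
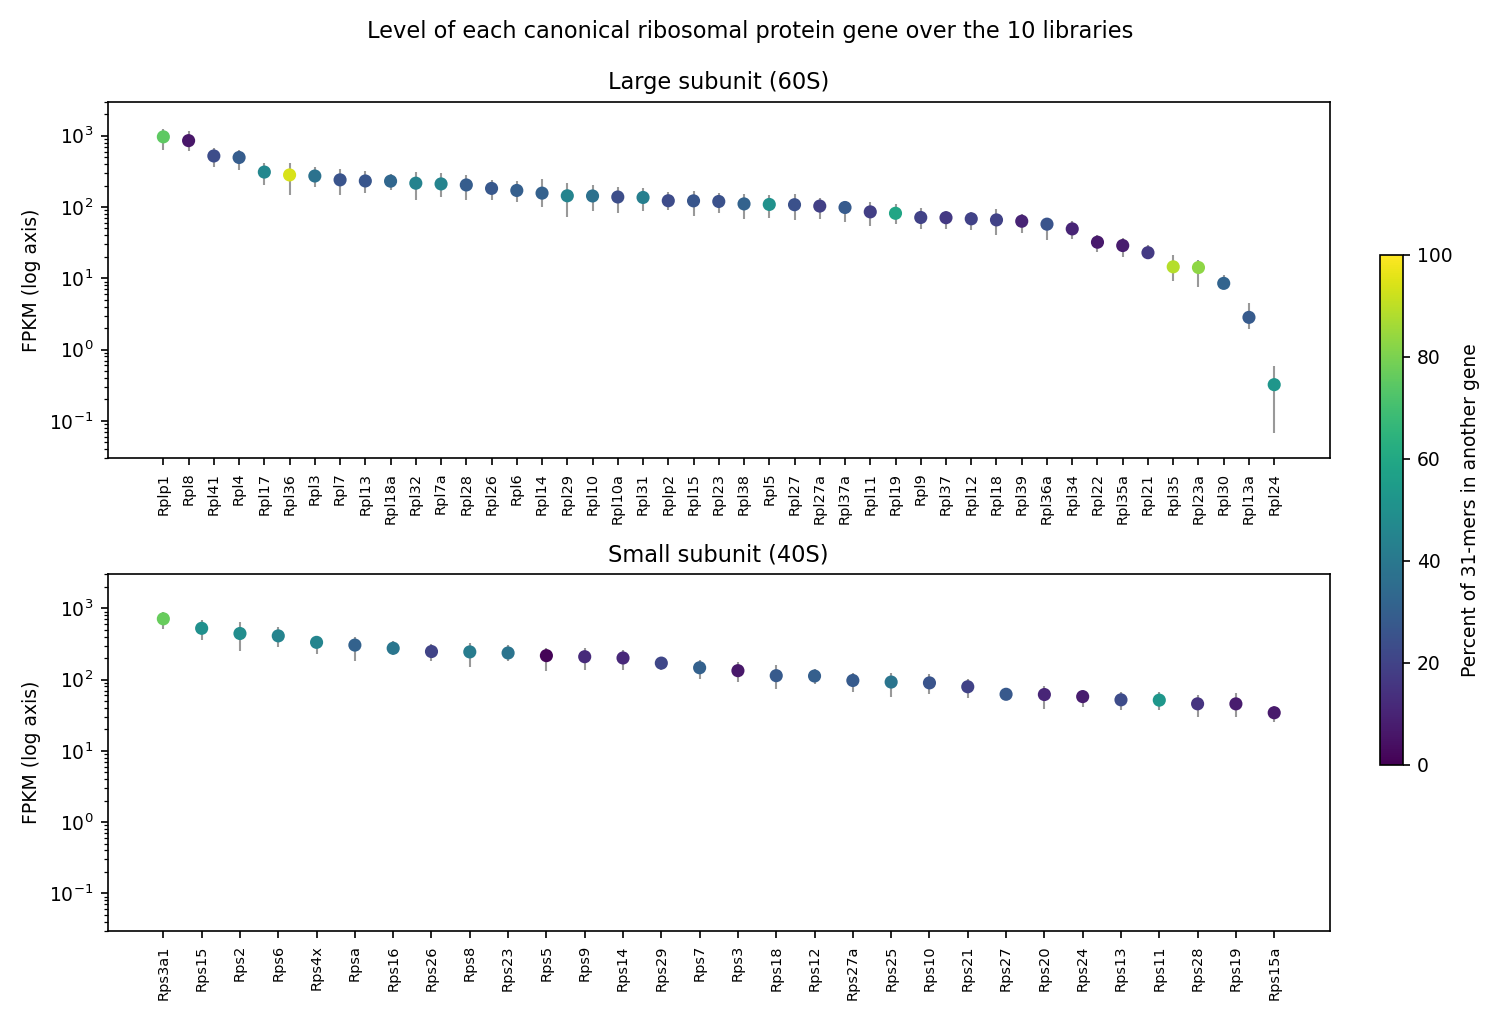
Mean deposited FPKM (log axis) of the subunit protein genes, ranked (1 gene not drawn), with a vertical line from the lowest to the highest library. Colour gives the share of the gene's 31-mers found in another gene. Means run from 0.321 FPKM for Rpl24 to 965 FPKM for Rplp1. The spread over libraries of a single gene is small beside the spread between genes, which also depends on the gene lengths used.

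Loss of the cluster on an Nrf2-null background (double-null against Nrf2-null) gave the clearest difference. Of the 87 genes tested, 29 rose and 0 fell at a Benjamini-Hochberg adjusted p under 0.05 in edgeR's quasi-likelihood test, fitted to all 14110 genes. Over all genes 14.4% rose and 12.9% fell. The median log2 fold change of the 87 genes was 0.39, with quartiles of 0.29 and 0.48, against 0.02 over all genes. Log2 fold changes were above 0 in 83 of the 87 genes (51% of all genes), and 54 had an unadjusted p under 0.05 (39.6% of all genes). In 44 of the 87 genes every double-null library exceeded every Nrf2-null library, against 23.4% of all genes, and in 0 every one was lower, against 21.8%. Of 60S genes 18 of 44 rose, with a median of 0.41, and of 40S genes 8 of 31, with a median of 0.38.

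The count rested on few libraries. It was 11 without double-null replicate 3, 7 without Nrf2-null replicate 1, 4 without Nrf2-null replicate 3 and 2 without both replicates 3, where the median was 0.21. With a term for sex it was 3, namely Rpl7, Rps25 and Rpl18. The Nrf2-null libraries and double-null replicates 1 and 2 were male. The sex term was thus set by double-null replicate 3 alone, and is not a check separate from leaving that library out. Without Nrf2-null replicate 3 the 4 were Rpl7, Rps25, Rpl18 and Rpl29, and without both replicates 3 they were Rpl18 and Rpl29. The calls of the others of the 29 named below ended there. Rpl29 itself was not among the 29. Nrf2-null replicate 3 had 2 counts of its copy Gm8210, against 279 and 248 in replicates 1 and 2, as given below.

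Rpl18 was the gene past the threshold in each of these fits. It encodes a 60S protein and is a Diamond-Blackfan anaemia gene in humans. It stood at 303, 293 and 373 normalised CPM in double-null libraries, against 221, 226 and 178 in Nrf2-null libraries. The miR-144/451-null libraries had 291 and 300 normalised CPM and the wild type libraries 237 and 224. Both genotypes that lack the cluster thus lay above both that have it, without overlap. In double-null libraries Rpl18 was 1.55-fold higher than in Nrf2-null libraries, with a log2 fold change of 0.63 ± 0.14 (SE; adjusted p = 0.007).

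Rpl7 and Rps25 had the same order. Rpl7, a 60S protein, stood at 788, 709 and 913 normalised CPM in double-null libraries, against 528, 580 and 426 in Nrf2-null libraries. Its log2 fold change was 0.65 ± 0.15 (adjusted p = 0.00985). Rps25, a 40S protein used by some viral and cellular internal ribosome entry sites, stood at 309, 259 and 329 normalised CPM in double-null libraries, against 194, 227 and 169 in Nrf2-null libraries. Its log2 fold change was 0.61 ± 0.14 (adjusted p = 0.00987), and neither gene's groups overlapped. Rpl18 and Rps25 were picked for mention after their values were seen.

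The largest log2 fold changes among the genes that rose were those of Rpl36al, Rpl22l1, Rpl36, Rps2 and Rpl7. Rpl36al, a paralogue of Rpl36a, stood at 1.41, 1.37 and 1.51 normalised CPM in double-null libraries, against 0.673, 0.150 and 0.383 in Nrf2-null libraries. It rose by 1.79 ± 0.51 on the log2 scale (adjusted p = 0.0246), on a total of 123 counts. Rpl22l1, the paralogue of Rpl22, stood at 13.8, 19.1 and 18.6 normalised CPM in double-null libraries, against 11.2, 11.6 and 8.88 in Nrf2-null libraries, a log2 fold change of 0.70 ± 0.22 (adjusted p = 0.0342). Rpl36, a 60S protein, stood at 129, 123 and 167 normalised CPM in double-null libraries, against 88.8, 106 and 65.9 in Nrf2-null libraries. Its log2 fold change was 0.68 ± 0.18 (adjusted p = 0.0183), and 94.1% of its 31-mers occur in another gene. Rps2, a 40S protein at the mRNA entry side, stood at 916, 856 and 1162 normalised CPM in double-null libraries, against 617, 746 and 501 in Nrf2-null libraries, a log2 fold change of 0.66 ± 0.17 (adjusted p = 0.0162). In all 4 of these genes the double-null libraries lay above the Nrf2-null ones without overlap.

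**Figure D4:**
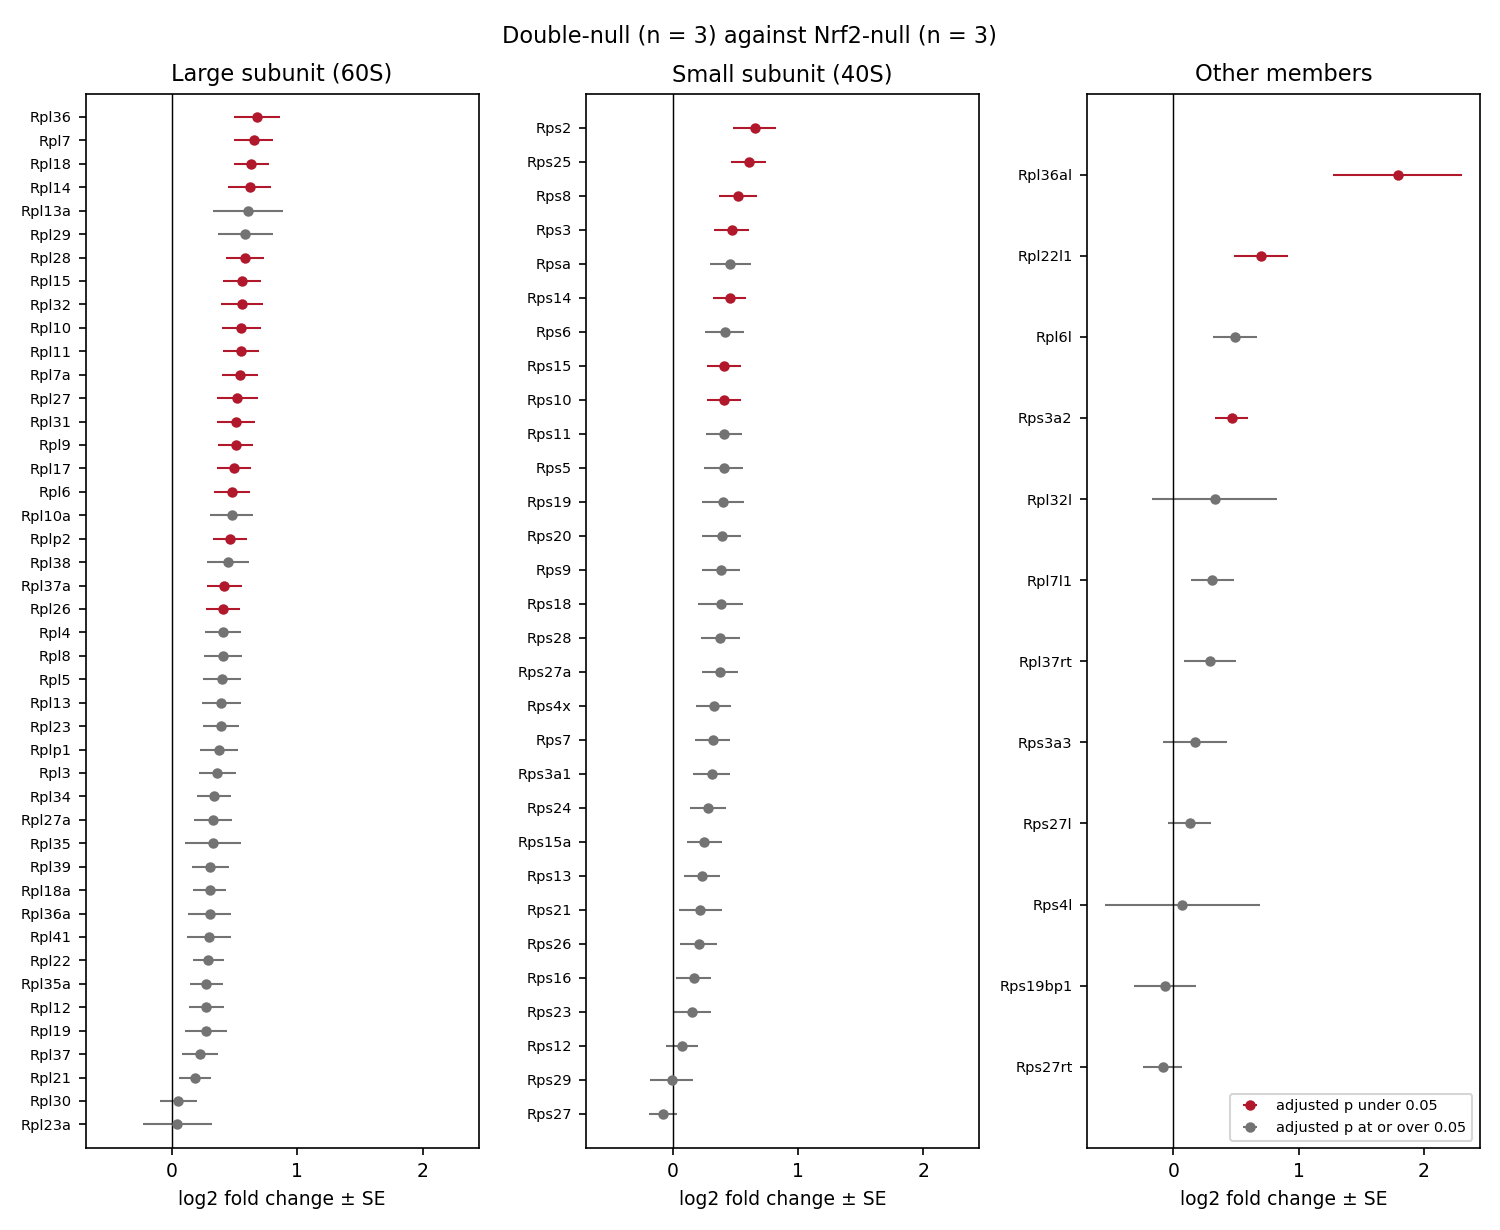
Log2 fold change of double-null against Nrf2-null libraries (point) with its SE (line) for the ribosomal protein genes tested (1 gene not drawn), in red where the adjusted p was under 0.05. The points run from -0.09 to 1.79, and no red point is below 0.

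The proteins that guard p53 and the stalk proteins lay within the same range. Rpl11, which with Rpl5 and 5S RNA binds and inhibits Mdm2 when ribosome assembly fails, stood at 250, 241 and 320 normalised CPM in double-null libraries, against 187, 208 and 159 in Nrf2-null libraries, and it rose by 0.55 ± 0.15 (adjusted p = 0.0176). Rpl5 had a log2 fold change of 0.40 ± 0.15 and did not pass (adjusted p = 0.0735). Trp53, which encodes p53 itself, rose by 0.57 ± 0.18 (adjusted p = 0.0399), as the 1 gene of 3 tested in that list with Mdm2 and Cdkn1a, a call that ended without double-null replicate 3, without Nrf2-null replicate 3 or with a term for sex. Rplp2 stood at 296, 250 and 333 normalised CPM in double-null libraries, against 237, 193 and 209 in Nrf2-null libraries, and it rose by 0.46 ± 0.13 (adjusted p = 0.0269). Its partner Rplp1 had a log2 fold change of 0.37 ± 0.15 (adjusted p = 0.0949).

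Of 19 genes mutated in Diamond-Blackfan anaemia 8 rose and 0 fell, with a median log2 fold change of 0.40, beside 14.4% of all genes higher and 12.9% lower. Among them were Rpl18, Rpl15, Rpl11 and Rpl31. The 8 became 3 without double-null replicate 3 and 1, Rpl18, without Nrf2-null replicate 3, without both or with a term for sex. Of 8 proteins around the peptide exit site 3 rose, Rpl17, Rpl26 and Rpl31, which became 1 (Rpl17) without double-null replicate 3 and 0 without Nrf2-null replicate 3, without both or with the sex term. Rps19, the gene most often mutated in the disease, had a log2 fold change of 0.40 ± 0.17 (adjusted p = 0.102). The subunit proteins Rps6 (0.41 ± 0.15, adjusted p = 0.0681), Rpsa (0.46 ± 0.16, adjusted p = 0.058), Rpl8 (0.41 ± 0.15, adjusted p = 0.0718) and Rps3a1 (0.31 ± 0.15, adjusted p = 0.141) did not pass. Rpl13a (0.61 ± 0.28, adjusted p = 0.126) did not pass either, on 841 counts in all. Rps6 is the classical substrate of the S6 kinases, and Rpsa is also known as the laminin receptor.

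A few genes lay near 0. Rps27, a zinc-finger protein of the 40S subunit, stood at 59.0, 59.7 and 66.9 normalised CPM in double-null libraries, against 68.4, 68.9 and 58.8 in Nrf2-null libraries. Its log2 fold change was -0.08 ± 0.11 (adjusted p = 0.635), and the groups overlapped. The libraries were also scaled to the summed counts of the ribosomal protein genes themselves, so a median of these genes near 0 follows from the scaling. The median of all genes was then -0.39, none of the 87 genes rose and 2 fell. These were Rps27 by 0.49 ± 0.14 (adjusted p = 0.0265) and its retrotransposed copy Rps27rt by 0.49 ± 0.15 (adjusted p = 0.0278). Of the 31-mers of Rps27rt 92.7% occur in another gene, so its values and those of Rps27 are not separate measurements. On the usual scale Rps29 (-0.01 ± 0.17), Rpl30 (0.05 ± 0.15) and Rps12 (0.08 ± 0.13) also had log2 fold changes near 0, and their adjusted p-values with the ribosomal protein scaling were 0.0683, 0.123 and 0.12. These genes were picked after their values were seen.

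Of 9 paralogues and like-named genes tested, Rpl36al, Rpl22l1 and Rps3a2 rose, 3 in all, beside 14.4% of all genes. Without both replicates 3 the count was 0, beside 9.47% of all genes. Rps3a2, a copy of Rps3a1 annotated as a pseudogene, stood at 37.5, 32.2 and 36.6 normalised CPM in double-null libraries, against 27.6, 25.3 and 24.2 in Nrf2-null libraries, and it rose by 0.47 ± 0.13 (adjusted p = 0.0218), with 92.9% of its 31-mers found in another gene. Rps27l, a p53-responsive paralogue of Rps27, had a log2 fold change of 0.13 ± 0.17, Rpl7l1 of 0.31 ± 0.17, Rps4l of 0.07 ± 0.62, Rps3a3 of 0.17 ± 0.26 and Rps19bp1 of -0.07 ± 0.25. None of these 5 passed the threshold, and Rps4l rested on 116 counts.

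The name rule leaves out some ribosomal genes, among them Fau, Rplp0 and Rack1. Fau, which encodes ribosomal protein S30 fused to a ubiquitin-like protein, stood at 297, 289 and 332 normalised CPM in double-null libraries, against 206, 231 and 210 in Nrf2-null libraries. It rose by 0.51 ± 0.11 (adjusted p = 0.00782) and stayed past the threshold in each alternative fit other than the ribosomal protein scaling. Rplp0, the stalk base protein, is described below. Rack1, a scaffold on the 40S subunit, had a log2 fold change of 0.48 ± 0.17 and did not pass (adjusted p = 0.0532).

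Other genes of translation differed between the same libraries. Of 28 initiation factor genes 13 rose and 0 fell, with a median log2 fold change of 0.42. Eif5b, which joins the subunits, rose by 1.19 ± 0.18 (adjusted p = 0.000983), Eif4g2 by 0.94 ± 0.14 (adjusted p = 0.000758) and the scaffold Eif4g1 by 0.86 ± 0.15 (adjusted p = 0.00212). Of 42 ribosome biogenesis genes 9 rose and 0 fell, with a median of 0.44. They included the assembly GTPase gene Gnl2 (0.94 ± 0.16, adjusted p = 0.00198), the rRNA processing gene Rrp1 (0.75 ± 0.12, adjusted p = 0.00143) and Ebna1bp2 (0.77 ± 0.15, adjusted p = 0.00323). Of 11 elongation factors and other genes with a pyrimidine start 3 rose, Naca (0.56 ± 0.13, adjusted p = 0.0102), Eef1a1 (0.58 ± 0.16, adjusted p = 0.0189) and Eef2 (0.44 ± 0.14, adjusted p = 0.0334). Of 7 ribosome rescue genes 3 rose, namely the ubiquitin ligase of stalled ribosomes Ltn1 (0.90 ± 0.11, adjusted p = 0.000335), Nemf (0.43 ± 0.12, adjusted p = 0.0259) and the recycling factor Abce1 (0.50 ± 0.17, adjusted p = 0.0452). These counts stand beside 14.4% of all genes higher. Without both replicates 3, where 9.47% of all genes were higher and 6.16% lower, 6 initiation, 4 biogenesis, 0 elongation and 1 rescue gene were higher and none of these lists had a lower one. With a term for sex, where 10.9% of all genes were higher, the counts were 5, 6, 1 and 1. Eif5b, Eif4g2, Eif4g1, Gnl2, Rrp1, Ebna1bp2 and Ltn1 passed in both of these fits.

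Of 19 regulators of ribosomal protein synthesis 6 were higher and 3 lower, beside 14.4% and 12.9% of all genes, and without both replicates 3 the counts were 6 and 2. Eif4ebp2 and Tsc2, which restrain translation and mTOR, rose by 1.46 ± 0.12 (adjusted p = 4.22e-05) and 1.57 ± 0.17 (adjusted p = 0.000125). Larp1, which binds the pyrimidine start of these messengers, rose by 0.90 ± 0.16 (adjusted p = 0.00203). Mxd3, a Max partner that opposes Myc, fell by 2.94 ± 0.23 (adjusted p = 4.17e-05), Sp1 fell by 0.89 ± 0.14 (adjusted p = 0.00112) and Myc fell by 1.35 ± 0.36 (adjusted p = 0.0221). The call of Myc ended without double-null replicate 3 and with a term for sex.

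Markers of other cells differed between these libraries too, where 14.4% of all genes were higher and 12.9% lower. Of 11 B cell markers 10 were lower, and their summed level was 470 to 1064 normalised CPM in the double-null group, against 1422 to 2025 in the Nrf2-null group. Of 12 erythroblast markers 4 were lower and 0 higher, with sums of 131865 to 162064 normalised CPM in the double-null group, against 114587 to 148711 in the Nrf2-null group. Of 7 megakaryocyte markers 2 were higher and 1 lower, with sums of 129 to 176 normalised CPM in the double-null group, against 42.2 to 63.2 in the Nrf2-null group. Macrophage markers summed to 175 to 537 normalised CPM in the double-null group, against 522 to 1483 in the Nrf2-null group, with 2 of 11 lower. Of 7 NK and 10 T cell markers 1 each was lower, and neutrophil markers, 0 of 9 called, summed to 1109 to 1206 normalised CPM in the double-null group, against 174 to 1171 in the Nrf2-null group. Without both replicates 3 the lower calls were 5 of 11 for B cell, 3 of 11 for macrophage and 1 of 12 for erythroblast markers. Over all genes 6.16% were then lower. The part of cell makeup in the ribosomal protein levels was not tested.

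Where Nrf2 is present, loss of the cluster (miR-144/451-null against wild type) moved no ribosomal protein gene past the threshold. None of the 87 had an adjusted p under 0.05, and none had an unadjusted p under 0.05 (18.4% of all genes had), while 2.4% of all genes were higher and 2.23% lower, and DESeq2 also called 0. The values leaned upward: 78 of 87 log2 fold changes were above 0, against 52% over all genes, and in 59 genes both miR-144/451-null libraries exceeded both wild type libraries, against 24.2% of all genes. In 3 genes they were lower without overlap, against 22.8% of all genes. The median log2 fold change was 0.16, against 0.02 over all genes, with 0.18 for 60S and 0.12 for 40S genes. With a term for sex the median was 0.45, but only the double-null libraries could set that term. The 2 groups compared here hold males and females with no sex in common. B cell markers summed to 997 to 1346 normalised CPM in the miR-144/451-null group, against 1862 to 2261 in the wild type group, with 0 of 11 called. Among the other translation genes Eif4ebp2 (1.14 ± 0.14, adjusted p = 0.00363), Tsc2 (0.99 ± 0.20, adjusted p = 0.0196), Ltn1 (0.70 ± 0.14, adjusted p = 0.018) and Eif4g2 (0.70 ± 0.17, adjusted p = 0.0401) rose and Mxd3 fell by 1.98 ± 0.26 (adjusted p = 0.00459), whereas 0 of 42 biogenesis genes passed, with a median of 0.22.

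The effects of cluster loss with and without Nrf2 were compared directly. The interaction called 0 of 87 ribosomal protein genes, against 0.0638% of all genes, and 1 had an unadjusted p under 0.05, against 4.46% of all genes, Rps19 (0.83 ± 0.27, adjusted p = 0.999). The median interaction was 0.23, against 0.01 over all genes. The 29 genes that rose on the Nrf2-null background are therefore not shown to respond differently where Nrf2 is present.

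Loss of Nrf2 alone (Nrf2-null against wild type) called 0 of 87 genes, with 0.128% of all genes higher and 0.0638% lower. A single gene of the 87, Rpl29, had an unadjusted p under 0.05, against 12.1% of all genes, and DESeq2 called 0. The median was -0.10, against -0.02 over all genes. It was 0.0077 without Nrf2-null replicate 3, -0.19 without Nrf2-null replicate 2 and 0.22 with a term for sex, so its direction depended on these settings. Here too the sex term was set by the double-null libraries alone. The Nrf2-null libraries were all male and the wild type libraries all female. Nrf2 loss and sex thus cannot be told apart in this comparison, here or for the single genes below. In 9 genes every Nrf2-null library lay below both wild type libraries, against 20.1% of all genes. Biogenesis genes had a median of -0.53, with 0 of 42 called.

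Loss of Nrf2 on a cluster-null background (double-null against miR-144/451-null) likewise called 0 of 87 genes, with 0.0496% of all genes higher and 0.0142% lower, and DESeq2 called 0. The 1 gene with an unadjusted p under 0.05, against 10.7% of all genes, was Rps19 (0.71 ± 0.19, adjusted p = 0.272). The miR-144/451-null libraries had high counts of its copy Rps19-ps6, as given below. The median was 0.13, against -0.02 over all genes. It was 0.045 without double-null replicate 3, 0.22 without double-null replicate 2 and 0.032 with a term for sex. Without scaling factors it was -0.07, where the median of all genes was -0.24. In 17 genes every double-null library lay above both miR-144/451-null libraries, against 12.1% of all genes. Biogenesis genes had a median of -0.24, with 0 of 42 called.

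Loss of both (double-null against wild type) moved 2 of 87 genes past the threshold, both higher, against 8.26% of all genes higher and 8.95% lower. Rpl28, a 60S protein, stood at 455, 425 and 521 normalised CPM in double-null libraries, against 300 and 327 in wild type, and it rose by 0.58 ± 0.17 (adjusted p = 0.0398). It was also higher than in Nrf2-null libraries, which had 330, 355 and 250 normalised CPM, by 0.58 ± 0.15 (adjusted p = 0.0154). Rps3a2 had 25.4 and 23.1 normalised CPM in wild type and rose by 0.55 ± 0.15 (adjusted p = 0.0267) in double-null libraries. Both calls ended without double-null replicate 1, without either wild type library, without scaling factors, with the ribosomal protein scaling and with a term for sex, where Rpl14 was the 1 gene called. That of Rpl28 also ended without double-null replicate 3, without Nrf2-null replicate 1 and with a replicate block. That of Rps3a2 also ended without a filter on low counts. Among the genes outside the name rule Fau rose by 0.44 ± 0.13 (adjusted p = 0.0377), with 221 and 230 normalised CPM in wild type. The median of the 87 genes was 0.29, against -0.02 over all genes, and in 52 of them every double-null library lay above both wild type libraries, against 24.9% of all genes. In 1 gene they lay below, against 25.3% of all genes. An unadjusted p under 0.05 was found for 21 of the 87, against 32.2% of all genes. Of 42 biogenesis genes 2 were higher and 0 lower, with a median of -0.10. B cell markers summed to 470 to 1064 normalised CPM in the double-null group, against 1862 to 2261 in the wild type group, with 10 of 11 lower. Of 12 erythroblast, 7 NK and 10 T cell markers 1 each was lower, of 7 megakaryocyte markers 1 was higher and 1 lower, and the part of cell makeup was not tested. The double-null libraries enter 3 of the comparisons and the wild type libraries also 3, so the comparisons are not independent of each other.

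For Rplp0, the counts of its processed pseudogenes also differed between genotypes. Rplp0 is the stalk base that anchors Rplp1 and Rplp2 and is often used as a reference gene in quantitative PCR. It had 31132, 27527 and 33339 counts in double-null libraries and 11041, 10747 and 7110 in Nrf2-null libraries. It had 28399 and 30834 counts in miR-144/451-null and 25924 and 19188 in wild type libraries. The Nrf2-null libraries were low alone, with no overlap with any other library. In normalised CPM it was lower in Nrf2-null than in wild type, by -1.17 ± 0.18 on the log2 scale (adjusted p = 0.0286), and higher in double-null than in Nrf2-null, by 1.70 ± 0.17 (adjusted p = 8.54e-05). The first of these calls had adjusted p-values of 0.056 to 0.17 without any single library of either genotype, and of 0.81 with a term for sex. The interaction was 1.39 ± 0.26 (adjusted p = 0.154).

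Gm8730, an intronless copy of Rplp0, ran the opposite way. It had 636, 484 and 583 counts in double-null libraries and 11960, 11966 and 7870 in Nrf2-null libraries. It had 460 and 524 in miR-144/451-null and 482 and 318 in wild type libraries. It was higher in Nrf2-null than in wild type by 4.80 ± 0.23 (adjusted p = 1.61e-06), and the double-null libraries had less than the Nrf2-null ones, by -4.19 ± 0.18 (adjusted p = 7.14e-07). Gm9625, another copy, had 93, 62 and 70 counts in double-null and 1632, 1518 and 995 in Nrf2-null libraries, with 78 and 81 in miR-144/451-null and 49 and 59 in wild type libraries.

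With the counts of its pseudogenes added, Rplp0 came to 2317 ± 164 normalised CPM in double-null libraries (SD, n = 3), 1568 ± 310 in Nrf2-null (n = 3), 1978 ± 189 in miR-144/451-null (n = 2) and 1600 ± 8.78 in wild type (n = 2). The sum then differed between Nrf2-null and wild type by -0.03 ± 0.18 on the log2 scale (adjusted p = 0.963). Between double-null and Nrf2-null libraries it differed by 0.57 ± 0.16 (adjusted p = 0.0251), within the range of the other ribosomal protein genes. Adding pseudogene counts was chosen after the data were seen.

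Rplp0 and Gm8730 are near-identical in sequence. Whether the assignment of reads, the genomic background of the mice or transcription of the copies sets these counts was not tested. In GRCm38, the build of GENCODE M21, Rplp0 lies at chr5:115559467-115563727 on the plus strand and Gm8730 at chr8:102864845-102865798 on the minus strand. The 954 coding bases of Rplp0 and the 954 bases of Gm8730 differ at 12 positions (98.7% identity) and share 580 31-mers. The stretches below cover coding bases 364 to 393 of Rplp0 and 361 to 390 of Rps19 (counted from the start codon), with differing bases in capitals.
Rplp0: actgtgccagctcagaacactggtctAggA
Gm8730: actgtgccagctcagaacactggtctGggG
Rps19: cgcaagctGacGcctcagggacagagagaC
Rps19-ps6: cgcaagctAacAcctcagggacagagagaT

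Rps19 and its copy Rps19-ps6 also differed in opposite directions, in another genotype. Its product is needed to mature the 18S RNA of the small subunit. It stood at 263, 223 and 305 normalised CPM in double-null libraries, 212, 233 and 154 in Nrf2-null, 171 and 152 in miR-144/451-null, and 205 and 229 in wild type libraries. Both miR-144/451-null libraries lay below the wild type ones, though the difference of -0.42 ± 0.21 did not pass (adjusted p = 0.31). The pseudogene Rps19-ps6 had 842 and 995 counts in the miR-144/451-null libraries, against 145 and 107 in wild type, and it rose by 2.77 ± 0.31 (adjusted p = 0.00187). The double-null libraries, which lack the same cluster, had 149, 117 and 232 counts, and they were lower than miR-144/451-null by -2.29 ± 0.26 (adjusted p = 0.00803). With the pseudogenes added, Rps19 in normalised CPM came to 224 ± 14.9 in the miR-144/451-null libraries, against 227 ± 16.4 in the wild type ones (SD, n = 2 each), a log2 difference of -0.01 ± 0.21. Rps19 lies at chr7:24884371-24889806 and Rps19-ps6 at chr12:110898114-110898551, both on the plus strand, and their 438 coding bases differ at 5 positions (98.9% identity).

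Rpl29 and its copy Gm8210 divided the libraries in a way that crossed the genotypes. Rpl29, a 60S protein, had 1658, 2738 and 2002 counts in double-null and 1224, 1278 and 1813 in Nrf2-null libraries, and 3016 and 3541 in miR-144/451-null and 2891 and 2471 in wild type libraries. Gm8210 had 321, 2 and 428 counts in double-null and 279, 248 and 2 in Nrf2-null libraries. It had 5 and 6 in miR-144/451-null and 3 and 3 in wild type libraries. The 4 libraries with over 200 counts of Gm8210 were those with the lowest Rpl29 in their genotype. Rpl29 was lower in Nrf2-null than in wild type by -0.83 ± 0.24 (unadjusted p = 0.00574 and adjusted p = 0.306 in edgeR). With its pseudogenes added, Rpl29 came to 149 ± 20.9 normalised CPM in Nrf2-null libraries (SD, n = 3). The wild type libraries had 238 ± 24.6 (n = 2), so here the sum stayed lower in Nrf2-null, unlike those of Rplp0 and Rps19. Between double-null and Nrf2-null libraries its log2 fold change was 0.58 ± 0.22 (adjusted p = 0.0724), and with its pseudogenes added it was 0.56 ± 0.15 (adjusted p = 0.0181). Rpl29 lies at chr9:106429454-106431568 and Gm8210 at chr1:43189156-43189638, both on the plus strand, and 483 coding bases differ at 3 positions (99.4% identity). One of the 3 falls in coding bases 43 to 72, shown with the differing base in capitals. Rpl29 and the pseudogenes were picked after their values were seen.
Rpl29: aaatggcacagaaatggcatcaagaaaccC
Gm8210: aaatggcacagaaatggcatcaagaaaccA

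**Figure D5:**
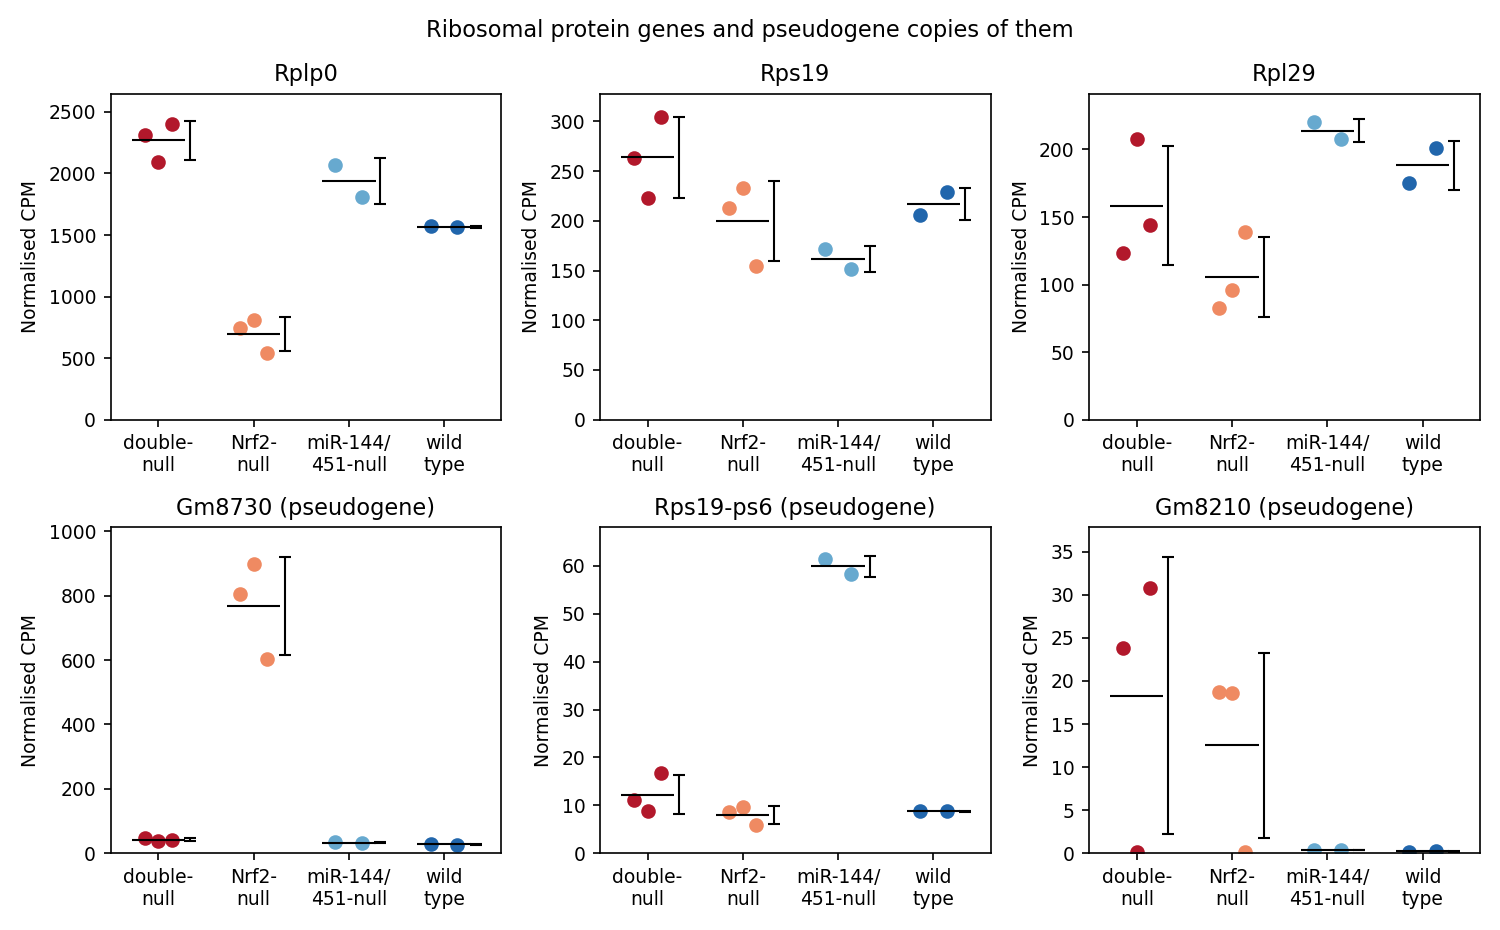
Normalised CPM of Rplp0 and Gm8730, Rps19 and Rps19-ps6, and Rpl29 and Gm8210 in each library (points), with the group mean and SD. Rplp0 is low and Gm8730 high in the 3 Nrf2-null libraries, Rps19-ps6 is high in the 2 miR-144/451-null libraries, and Gm8210 is high in 2 double-null and 2 Nrf2-null libraries.

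The other copies were counted in the same way. In all, 862 pseudogenes in the count table share at least 50 31-mers with a ribosomal protein gene, and 189 of them, copies of 84 genes, were tested. Of the 189, 38 were higher and 4 lower in double-null against Nrf2-null libraries, against 14.4% and 12.9% of all genes. The 4 were Gm8730, Gm9625 and Gm14165, all copies of Rplp0, and Rps2-ps9. Without both replicates 3, 7 of 187 were higher and 3 lower, against 9.47% and 6.16% of all genes. In miR-144/451-null against wild type 3 were higher and 0 lower, namely Rps19-ps6, Rps19-ps2 and Gm5905, a copy of Rps9, against 2.4% and 2.23% of all genes. In Nrf2-null against wild type 2 were higher, Gm8730 and Gm9625, against 0.128% of all genes. In double-null against miR-144/451-null 1 was lower, Rps19-ps6, against 0.0142% of all genes. In double-null against wild type 16 were higher and 0 lower, against 8.26% and 8.95%. With all pseudogene counts added to the genes they share most with, 33 ribosomal protein genes rose in double-null against Nrf2-null libraries, including all 29 called from the counts as deposited.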

How the data were processed

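The authors deposited raw counts for 53465 Ensembl genes in 10 libraries, and FPKM values per library for 27087 genes. Per the submitters' processing notes the build was mm9 and the tools were TopHat2, HISAT2 2.1.0, Bowtie2 2.2.3 and CASAVA, with no role given for any. How reads were counted, and with which annotation and strand setting, is not given in the sources used here. Symbols and 31-mers came from GENCODE M21 (99.6% of identifiers matched), promoters from RefSeq.

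Counts of all 10 libraries were fitted in R 4.3.3 with edgeR 4.0.16 (TMM, filterByExpr, robust quasi-likelihood test, two-sided), with a coefficient per genotype, 6 residual degrees of freedom and Benjamini-Hochberg adjustment over 14110 genes. The fit was tested on simulated data. The authors' FPKM values served only to compare levels between genes. Normalised CPM are counts scaled with TMM factors, and SE is that of the log2 fold change. Replicates differed by more than sampling noise (chi-square per degree of freedom 16.2 to 28.3). Markers were summed over fixed lists.

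The members, lists and tests were chosen with earlier results of these data known. Named genes were up to 5 per direction and comparison by log2 fold change among those called, all members of the stalk, 5S particle, paralogue and outside-the-rule lists, Rps19, Rps6 and Rpsa, the 3 highest and 3 lowest by FPKM, those at the count minimum, and up to 3 per direction of each other translation list by p. A few genes of these lists are not reported here. The text says where a gene was picked otherwise. Alternatives were RLE factors, no scaling, globin genes removed, no filter, DESeq2 1.42.0, a replicate block, a sex term and each library left out. Pseudogene counts added, scaling to the ribosomal protein sum and replicates 3 of both Nrf2-deficient genotypes left out together were added after the data were seen.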

Additional observations from a re-analysis of the deposited data

How the results depend on the processing

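No call changed sign under any alternative run. For double-null against Nrf2-null libraries, the 29 genes called became 17 with the replicate block and 3 with a sex term. The count was 2 without replicates 3 of both genotypes (median 0.21). Scaled to the ribosomal protein sum, none of the 29 was called, and 2 other genes, Rps27 and Rps27rt, were lower (median -0.017). That scaling equates the summed level of these genes between libraries, so a median near 0 follows from it in any comparison. Leaving out single libraries gave 4 to 33 calls: 17 without double-null replicate 1, 19 without wild type replicate 1, and the smaller counts in the results above. Other settings gave 23 to 37. For double-null against wild type, the 2 calls became 0 without scaling or with the ribosomal protein scaling (median -0.023), 1 with the block, 1 with a sex term (Rpl14, median 0.49), 4 with pseudogenes added, 5 without a filter, 6 with DESeq2, 8 without globin genes, and 0 to 5 without single libraries. Without a filter, 1 gene was called in Nrf2-null against wild type (Rpl29, lower) and 1 in double-null against miR-144/451-null (Rps19, higher). With a sex term the median against wild type moved to 0.45 for the miR-144/451-null and 0.22 for the Nrf2-null libraries, and without scaling to -0.075 in double-null against miR-144/451-null. Only the double-null group held both sexes, so the sex term was set by double-null replicate 3 against replicates 1 and 2. It was carried over to the wild type libraries, which were all female. Sex and the deviation of that replicate cannot be told apart, so these medians are not effects freed of sex. The cause of the other changes was not tested.

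The replicate numbers gave no clear sign of pairing. Over 13 pairs with the same number the correlation of deviations over all genes ran from -0.11 to 0.29, and 1 exceeded 0.1. Over the ribosomal protein genes it ran from -0.60 to 0.46. In groups of 2 libraries the deviations mirror each other, so these pairs are not independent and cannot exclude pairing. All 17 calls under the block were among the 29. Depth limits Rpl24, Rpl36al and Rps4l, and groups of 2 or 3 libraries limit the rest.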
